A study of Oryza sativa with 8 samples.

Results

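In rice flag leaves, 120 loci were found at which the mixture of annotated transcripts differed between the wild type and plants labelled GSK2-RNAi. Members were chosen by their measured shares. A locus was kept when it had at least 2 transcripts in the deposited table and a summed value of at least 100 normalized counts in all 8 libraries. In addition, the share of 1 of its transcripts in the locus sum had to differ by at least 0.2 between the mean of the wild type and the mean of the GSK2-RNAi libraries, with no overlap between the libraries of these groups. Of 32166 loci in the table, 4917 had 2 or more transcripts and 4009 could meet the rule on the sum, so the 120 loci made up 2.99% of those that could be chosen. They held 300 transcripts, of which 219 met the rule themselves. For each locus the transcript with the largest difference is described as the lead transcript. Where both transcripts of a pair mirrored each other, the one higher in GSK2-RNAi was taken.

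The libraries came from leaves of the cultivar ZH11 grown in a chamber. Every sample title also carries the tag CK, which the titles do not explain. The wild type was represented by 2 libraries (numbered 1 and 3), GSK2-RNAi by 3, and GSK2-RNAi oswrky53, whose label joins the same RNA interference with oswrky53, the name of a transcription factor gene, by 3. Sample labels give the heading stage and the series text the booting stage, for all groups. The promoter of the interference construct, what was changed in oswrky53 and the number of independent lines are not stated, and neither is whether libraries came from separate plants, so p-values reflect sample-to-sample spread that may be technical.

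One locus can give several messenger RNAs, through alternative start sites, alternative splicing or alternative ends, and these can encode different proteins or differ only in untranslated parts. In plants retained introns are the most common form of alternative splicing, and such transcripts often carry early stop codons and can be degraded. Short reads are assigned to overlapping transcripts by a statistical estimate, so the share of a transcript is an estimate that leans on the few bases in which the transcripts differ. GSK2, a shaggy-like kinase, is a brake on the brassinosteroid hormone pathway, and WRKY53 is known from the same pathway and from defence.

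Library totals were between 20870000 and 28030000 normalized counts, and the 3 GSK2-RNAi libraries had the lowest, at no more than 21710000. Between 4.99% and 6.56% of the 9147 transcripts of the 4009 loci were listed at 0 in a library. GSK2 went against its label, with a mean of 102 ± 4.25 normalized counts over 2 wild type libraries (SD), of 785 ± 39.99 over the 3 that carry the GSK2-RNAi label and of 185 ± 32.2 over the 3 of GSK2-RNAi oswrky53. Whether reads of the construct count toward the single GSK2 transcript is not stated, so this level does not check the label. No direction given here is read as the effect of less GSK2 transcript. WRKY53 was not lower in the libraries labelled oswrky53: its mean was 8423 ± 2892 normalized counts there (SD), against 7933 ± 587 in GSK2-RNAi and 3600 ± 554 in the wild type. As the kind of change in the gene is not stated, this level does not check that label. GSK2 and WRKY53 have 1 transcript each in the table and could not be members. The summed level of 5 leaf mesophyll markers was lower in GSK2-RNAi, at 539700 to 673700, than in the wild type, at 1200000 to 1345000, and in GSK2-RNAi oswrky53, at 1014000 to 1370000. Of these markers CAB2R, a chlorophyll a/b binding protein gene, did not separate GSK2-RNAi from the wild type. It was at 87350 and 271400 in the wild type and at 96000 to 128600 in GSK2-RNAi. The other markers were lower in every GSK2-RNAi library than in both wild type libraries. Floral markers were at 231 to 1092 over all libraries, dividing cell markers at 6.30 to 21.8, and the meristem marker OSH1 at no more than 3.27. In bulk leaf, fewer cells of a type and less RNA per cell cannot be told apart, and the part of cell mixture in the shares was not tested.

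The size of the shift was modest at most of the 120 loci and large at a few. The difference in mean share, which chose the loci and is given as a description only, had a median size of 0.252 and ran from 0.20 to 0.65. It reached 0.3 at 32 loci and 0.4 at 12. At 95 of the 120 loci the mean value of the lead transcript and that of the rest of the locus differed in opposite directions, while at 15 both were higher in GSK2-RNAi and at 10 both were lower. The transcript with the highest mean share was a different one in the wild type and in GSK2-RNAi at 50 loci. In GSK2-RNAi oswrky53 it was the one of GSK2-RNAi at 31 of these 50 and the one of the wild type at 19. Other loci were not counted in this way, so nothing is read from this split.

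**Figure D1:**
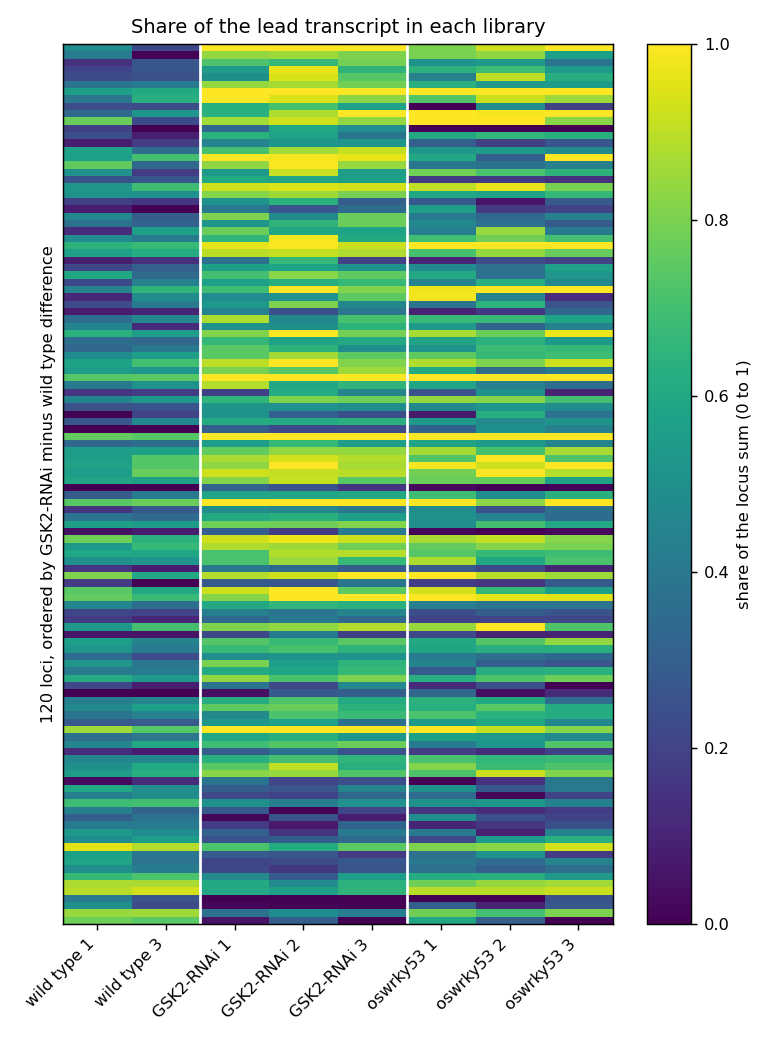
Share of the lead transcript in the locus sum (colour, 0 to 1) at the 120 loci (rows, ordered by the difference GSK2-RNAi minus wild type) in the 8 libraries (columns). The contrast between the first 2 and the next 3 columns was fixed by the choice of loci, while the shares in the last 3 columns (GSK2-RNAi oswrky53) were not used in it.

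Loci with exactly 2 transcripts allow the direction to be read without choosing a lead. Among the members there were 80 of these, and 78 had a transcript numbered 01, the first of the annotation. The mean share of transcript 01 was higher in GSK2-RNAi at 55 of the 78 loci (70.5%) and lower at 23. Over all 3079 such loci of the table that could be chosen it was higher at 1917 (62.3%) and lower at 1054, the others being ties. The members, which cannot be ties, and the table as a whole leaned the same way, and no test was made. Members had more transcripts than the background: 66.7% had exactly 2, against 77.7% of all 4009 loci, and the highest number was 5. They were also less abundant, with a median locus sum of 594 normalized counts against 910, and 70.8% of them were below 1000, against 53.7%. A locus with more transcripts has more chances to meet the rule. How far the rule itself set these differences was not tested. The members lay on all 12 chromosomes, at between 1.48% of the eligible loci on chromosome 12 and 4.33% on chromosome 8.

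The table holds identifiers only. Of the 120 loci, 11 could be paired with a gene symbol, and these are described by role, with values for every library before any test.

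Genes of phenylpropanoid and cell wall synthesis were among the named loci. ZB8 (Os02g0626400, chromosome 2) encodes a phenylalanine ammonia-lyase, the entry enzyme of the phenylpropanoid pathway. Its transcript 01 made up 0.386 and 0.407 of the locus sum in the wild type, 0.844, 0.865 and 0.787 in GSK2-RNAi, and 0.634, 0.541 and 0.550 in GSK2-RNAi oswrky53. The 3 groups did not overlap, and GSK2-RNAi oswrky53 lay between the others. The share in GSK2-RNAi oswrky53 was 0.257 ± 0.0339 below that of GSK2-RNAi (SE), short of the threshold (limma adjusted p = 0.0882), and 0.179 ± 0.0379 above that of the wild type (limma adjusted p = 0.0962). As the log2 ratio of transcript 01 to the rest of the locus, the difference from GSK2-RNAi was -1.89 and passed (limma adjusted p = 0.045). The largest opposite difference was that of transcript 03, at 0.392 and 0.593 of the sum in the wild type and 0.135 to 0.208 in GSK2-RNAi.

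The locus as a whole differed as well. The sum of ZB8 was 280 and 102 normalized counts in the wild type, 1625, 2659 and 2691 in GSK2-RNAi, and 231, 302 and 867 in GSK2-RNAi oswrky53. All transcripts but 02 were thus more abundant in GSK2-RNAi, and transcript 01 by far the most: it was at 108 and 41.6 in the wild type and at 1371, 2300 and 2118 in GSK2-RNAi. From GSK2-RNAi to GSK2-RNAi oswrky53 the sum fell by 2.52 ± 0.53 in units of log2(value + 1) (SE; limma adjusted p = 0.017). Leaving out GSK2-RNAi replicate 2 (adjusted p = 0.0681) or replicate 3 (adjusted p = 0.0583) ended that call. Other phenylalanine ammonia-lyase genes lie close by on the same chromosome, and near-identical copies may share reads.

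CAD3 (Os10g0430200, chromosome 10) encodes a cinnamyl alcohol dehydrogenase, of an enzyme class that makes the alcohols from which lignin is built, and its sum was lower in GSK2-RNAi. The sum was 3854 and 1427 normalized counts in the wild type, 515, 399 and 612 in GSK2-RNAi, and 1387, 1307 and 3447 in GSK2-RNAi oswrky53. Transcript 03, the main one in the wild type, was at 2958 and 1043 there and at 118 to 390 in GSK2-RNAi. Transcript 02 was at 328 and 206 against 121 to 265, so its share was 0.0851 and 0.144 in the wild type but 0.378, 0.664 and 0.197 in GSK2-RNAi. In GSK2-RNAi oswrky53 the share of transcript 02 was 0.105, 0.236 and 0.193, overlapping both groups, and neither difference passed (limma adjusted p = 0.413 and 0.824). Against GSK2-RNAi the sum rose by 1.88 ± 0.45 in log2 units (SE; limma adjusted p = 0.0266). Leaving out GSK2-RNAi replicate 1 (adjusted p = 0.0699), 2 (0.101) or 3 (0.0581), or GSK2-RNAi oswrky53 replicate 3 (0.0639), ended the call.

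CSLE2 (Os02g0725300, chromosome 2) is a cellulose synthase-like gene. Its lead share was 1 of 2 among the 120 that were called in GSK2-RNAi oswrky53 against GSK2-RNAi. Over all 9147 transcripts tested, 9 were called (0.0984%). Transcript 04 made up 0.891 and 0.936 of the sum in the wild type, 0.602, 0.564 and 0.650 in GSK2-RNAi, and 0.898, 0.895 and 0.919 in GSK2-RNAi oswrky53. The last group lay inside the range of the wild type, and GSK2-RNAi stood apart from both. Transcript 01 took most of the difference: it was listed at 31.0 and 12.3 normalized counts in the wild type, at 305, 376 and 227 in GSK2-RNAi and at 18.6, 13.1 and 18.9 in GSK2-RNAi oswrky53. Transcript 04 itself was at 471 and 513, at 603 to 671, and at 383 to 475. The share of transcript 04 was higher in GSK2-RNAi oswrky53 than in GSK2-RNAi by 0.299 ± 0.0243 (SE, limma adjusted p = 0.022). The call passed in 7 of 15 alternative settings, with adjusted p from 0.0139 to 0.135, and was lost without wild type replicate 1 (0.0768) or 3 (0.0795), GSK2-RNAi replicate 1 (0.107) and GSK2-RNAi oswrky53 replicate 1 (0.0586), 2 (0.131) or 3 (0.108). The locus sum fell by 1.13 ± 0.12 in log2 units (limma adjusted p = 0.00198).

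CESA3 (Os07g0424400, chromosome 7) encodes a catalytic subunit of cellulose synthase. Its transcript 01 was at 0.173 and 0 of the sum in the wild type, at 0.284, 0.276 and 0.387 in GSK2-RNAi, and at 0.186, 0.153 and 0.281 in GSK2-RNAi oswrky53. Transcript 04 of this locus was listed at 0 in all 5 libraries of the wild type and GSK2-RNAi, and at 52.6, 36.0 and 46.1 normalized counts in GSK2-RNAi oswrky53. Neither difference of transcript 01 passed (limma adjusted p = 0.458 against GSK2-RNAi and 0.338 against the wild type).

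**Figure D2:**
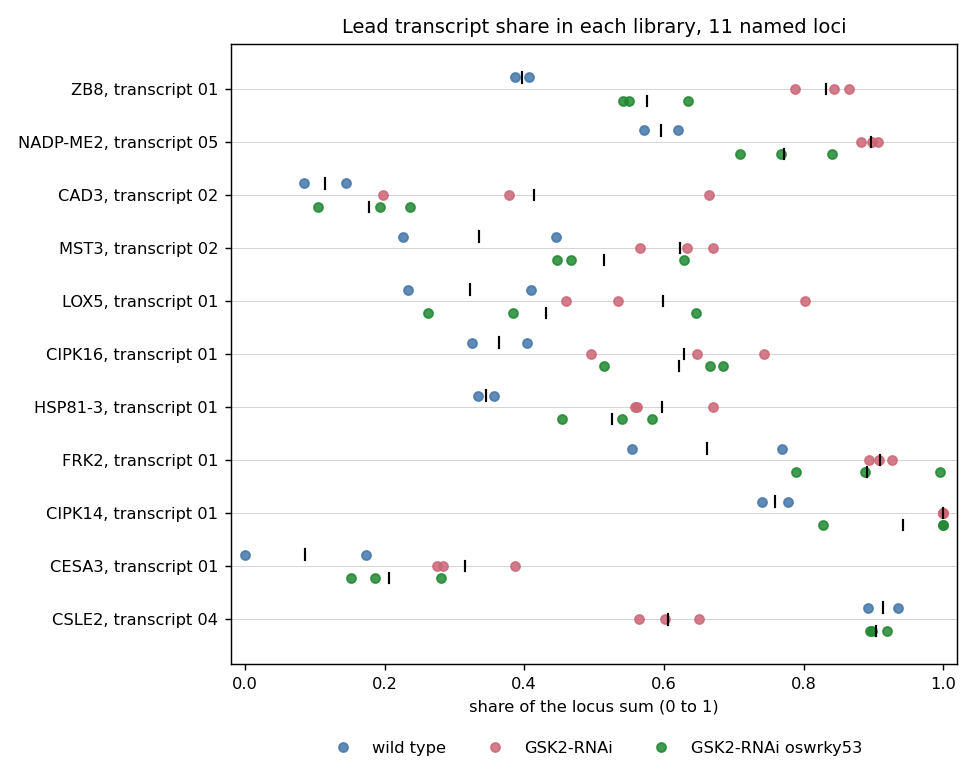
Share of the lead transcript in the locus sum (x axis, 0 to 1) at the 11 loci with a gene symbol (y axis). Each point is 1 library, coloured by group, and the black ticks are group means. At ZB8 and NADP-ME2 the 3 GSK2-RNAi oswrky53 libraries lie between the other groups, and at CSLE2 they lie with the wild type.

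Genes of sugar and organic acid metabolism formed another set. NADP-ME2 (Os01g0723400, chromosome 1) encodes an NADP-dependent malic enzyme, which turns malate into pyruvate and supplies NADPH. Transcript 05 made up 0.572 and 0.620 of the sum in the wild type, 0.898, 0.906 and 0.883 in GSK2-RNAi, and 0.709, 0.840 and 0.768 in GSK2-RNAi oswrky53. The groups did not overlap, with GSK2-RNAi oswrky53 in between. Transcript 05 was at 4147 and 5383 normalized counts in the wild type and between 18610 and 25150 in GSK2-RNAi, while transcript 01 was at 2550 and 2732 in the wild type and between 1114 and 1369 in GSK2-RNAi. The share in GSK2-RNAi oswrky53 differed by -0.123 ± 0.034 from GSK2-RNAi (SE, limma adjusted p = 0.208) and by 0.177 ± 0.038 from the wild type (limma adjusted p = 0.0962). The locus sum fell by 1.23 ± 0.17 in log2 units from GSK2-RNAi to GSK2-RNAi oswrky53 (limma adjusted p = 0.00433).

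MST3 (Os07g0106200, chromosome 7) encodes a monosaccharide transporter. Its sum was 527 and 513 normalized counts in the wild type, 6270, 7663 and 8613 in GSK2-RNAi, and 1207, 1183 and 1358 in GSK2-RNAi oswrky53. Both transcripts were more abundant in GSK2-RNAi, transcript 02 more so, and its share was 0.226 and 0.445, then 0.566, 0.632 and 0.671, then 0.446, 0.629 and 0.467 in the same order of groups. The share differences did not pass (limma adjusted p = 0.56 against GSK2-RNAi and 0.278 against the wild type). The sum fell by 2.58 ± 0.14 in log2 units against GSK2-RNAi (limma adjusted p = 3e-04) and rose by 1.26 ± 0.15 against the wild type (limma adjusted p = 0.0132). The second call was lost without wild type replicate 1 (0.0758) or 3 (0.0836) and without GSK2-RNAi oswrky53 replicate 3 (0.0559).

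FRK2 (Os08g0113100, chromosome 8), a fructokinase gene, had sums with means of 1323 ± 319 normalized counts in wild type leaves (SD, n = 2), 1674 ± 103 in GSK2-RNAi (SD, n = 3) and 2099 ± 335 in GSK2-RNAi oswrky53 (SD, n = 3). Its transcript 02 was at 489 and 358 normalized counts in the wild type, at 116, 163 and 178 in GSK2-RNAi, and at 364, 10.9 and 251 in GSK2-RNAi oswrky53. The share of transcript 01 was accordingly 0.555 and 0.769, then 0.926, 0.908 and 0.894, then 0.788, 0.995 and 0.887. Neither difference of GSK2-RNAi oswrky53 passed (limma adjusted p = 0.954 and 0.174).

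**Figure D3:**
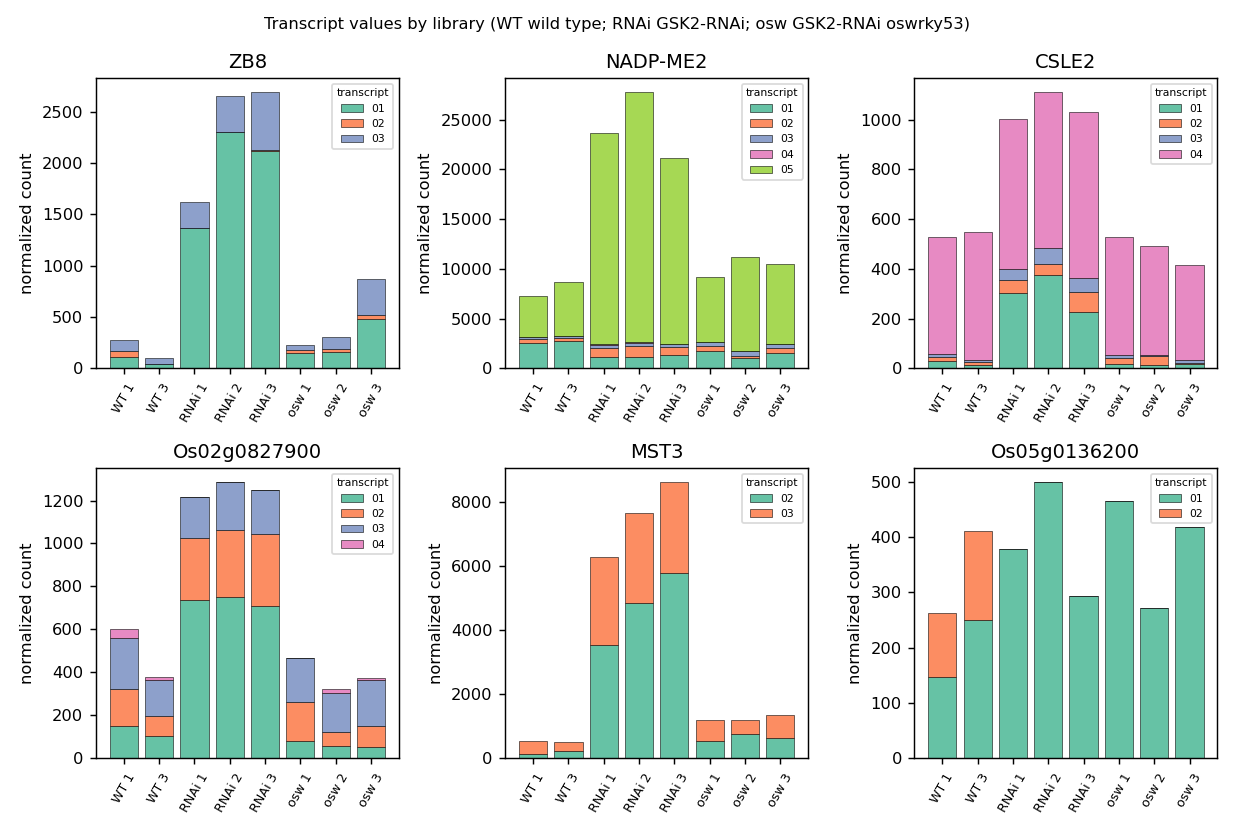
Normalized counts of each annotated transcript (stacked colours, y axis from 0) in the 8 libraries (x axis) at 6 of the 120 loci. At ZB8 and MST3 the whole locus was far higher in GSK2-RNAi, at CSLE2 transcript 01 appears mainly there, and at Os05g0136200 transcript 02 is seen in the wild type libraries and listed at 0 in the other 6.

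Signalling, chaperone and lipid genes made up the rest of the named loci. CIPK14 (Os12g0113500, chromosome 12) and CIPK16 (Os09g0418000, chromosome 9) encode kinases that act with calcineurin B-like calcium sensors. Transcript 02 of CIPK14 was at 182 and 547 normalized counts in the wild type, was listed at 0 in all 3 GSK2-RNAi libraries, and was at 0, 219 and 0 in GSK2-RNAi oswrky53. Transcript 01 of CIPK14 therefore had a share of 0.740 and 0.777, then 1.00 in each GSK2-RNAi library, then 1.00, 0.828 and 1.00. From the wild type it differed by 0.184 ± 0.0527 (SE, limma adjusted p = 0.137), and it was called without GSK2-RNAi oswrky53 replicate 2 (adjusted p = 0.00451). In that setting every library outside the wild type was at 1.00 and had no spread, so this adjusted p may be too small. CIPK14 has a close relative, CIPK15, with which reads may be shared.

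At CIPK16 transcript 01 had a share of 0.326 and 0.403 in the wild type, 0.743, 0.648 and 0.496 in GSK2-RNAi, and 0.514, 0.684 and 0.666 in GSK2-RNAi oswrky53. The 3 oswrky53 libraries lay within the range of GSK2-RNAi, at a difference of -0.00753 ± 0.0765 (SE, limma adjusted p = 1), and above the wild type by 0.257 ± 0.0855 (limma adjusted p = 0.168).

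HSP81-3 (Os09g0482600, chromosome 9) encodes a chaperone of the HSP90 family. Transcript 01 had a share of 0.334 and 0.356 in the wild type, 0.558, 0.670 and 0.561 in GSK2-RNAi, and 0.582, 0.540 and 0.454 in GSK2-RNAi oswrky53. It was at 714 and 1116 normalized counts in the wild type against 2104, 2688 and 1626, whereas transcript 02 was at 1423 and 2018 against 1663, 1322 and 1274, so that transcript 02 was the higher of the pair in both wild type libraries and transcript 01 in all 3 GSK2-RNAi libraries. Neither difference of GSK2-RNAi oswrky53 passed (limma adjusted p = 0.541 against GSK2-RNAi and 0.139 against the wild type), and a neighbouring HSP90 copy may share reads.

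LOX5 (Os03g0700700, chromosome 3) encodes a lipoxygenase, an enzyme that oxidises fatty acids, and was the least abundant named locus, with sums of 116 to 209 normalized counts. The share of its transcript 01 was 0.234 and 0.410 in the wild type, 0.534, 0.802 and 0.459 in GSK2-RNAi, and 0.384, 0.645 and 0.262 in GSK2-RNAi oswrky53. The libraries of each group were widely spread, and neither difference passed (limma adjusted p = 0.611 and 0.702). It has close lipoxygenase neighbours.

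Among the loci without a symbol were those with the largest shifts. At Os01g0235700 (chromosome 1) transcript 02 was at 398 and 487 normalized counts in the wild type, was listed at 0 in all 3 GSK2-RNAi libraries, and was at 170, 54.4 and 0 in GSK2-RNAi oswrky53. The share of transcript 01 was thus 0.486 and 0.212, then 1.00 in all 3 libraries, then 0.804, 0.923 and 1.00. The sum of the locus stayed between 617 and 865 in the 8 libraries. The share in GSK2-RNAi oswrky53 exceeded that of the wild type by 0.56 ± 0.0881 (SE, limma adjusted p = 0.0674). Without wild type replicate 1, which left 1 wild type library, the difference was 0.697. The wild type libraries had an SD of 0.194, while GSK2-RNAi at 1.00 had no spread. The pooled SE may therefore understate the wild type spread.

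At Os04g0576800 (chromosome 4) transcript 02 led in the wild type and transcript 03 in GSK2-RNAi. Transcript 02 had a share of 0.781 and 0.742 in the wild type and of 0.0514, 0.304 and 0 in GSK2-RNAi. In GSK2-RNAi oswrky53 it was at 0.599, 0.308 and 0, so these 3 libraries covered most of the range between the groups, and neither difference passed (limma adjusted p = 0.642 and 0.214). At Os04g0689500 (chromosome 4) the wild type libraries themselves were far apart, at 0.408 and 0.00855 for transcript 01, against 0.838, 0.854 and 0.808 in GSK2-RNAi.

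Os01g0527700 and Os05g0268500 had tighter groups. At Os01g0527700 (chromosome 1) transcript 02 had a share of 0.144 and 0.266 in the wild type, 0.722, 0.667 and 0.791 in GSK2-RNAi, and 0.511, 0.543 and 0.388 in GSK2-RNAi oswrky53 (limma adjusted p = 0.169 against GSK2-RNAi and 0.103 against the wild type). At Os05g0268500 (chromosome 5) transcript 03 had a share of 0.844 and 0.856, then 0.378, 0.488 and 0.426, then 0.785, 0.702 and 0.801. Here the 3 groups were fully separate, and GSK2-RNAi oswrky53 lay close to the wild type. Its difference of 0.332 ± 0.038 from GSK2-RNAi missed the threshold (SE, limma adjusted p = 0.0696) and was called without GSK2-RNAi replicate 2 (adjusted p = 0.0484) and on the log2 ratio scale (a difference of 2.10, adjusted p = 0.0325).

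The remaining loci of the 10 with the largest shifts were Os03g0577500, Os01g0874700, Os05g0136200 and Os06g0717600. In the first and second the GSK2-RNAi libraries were widely spread, from 0.552 to 0.967 and from 0.498 to 0.945, and replicate 2 was the highest of the 3 in both. Over all 120 loci, replicate 2 lay farthest from the wild type side among the 3 GSK2-RNAi libraries at 58 loci, replicate 1 at 27 and replicate 3 at 28, the others being ties.

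The libraries labelled GSK2-RNAi oswrky53 were not used to choose the loci, but both comparisons made with them share an arm with the choice, so their sizes cannot be set against the first difference. All 120 lead transcripts were tested in a fit over 9147 transcripts. Against GSK2-RNAi, 2 lead transcripts were called, CSLE2 and Os02g0827900, where 0.0984% of all transcripts tested were called (9 of 9147). Against the wild type 6 were called, where 0.492% of all transcripts were (45 of 9147). Without GSK2-RNAi replicate 2, 4 lead transcripts were called against GSK2-RNAi, beside 32 of all 9147 transcripts. Without GSK2-RNAi oswrky53 replicate 2 none was (0), beside 1 of all transcripts. At an unadjusted p under 0.05 the lead transcripts numbered 37 of 120 against GSK2-RNAi (30.8%), where 14.8% of all transcripts were, and 57 against the wild type (47.5%), where 21.7% of all were. Both comparisons share an arm with the choice of loci, so nothing is read from these shares. With 2 or 3 libraries a group, a locus that was not called is not shown to be alike in the groups.

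At Os02g0827900 (chromosome 2) transcript 01 had a share of 0.250 and 0.269 in the wild type, 0.606, 0.584 and 0.568 in GSK2-RNAi, and 0.169, 0.174 and 0.142 in GSK2-RNAi oswrky53. The spread within groups was small, and the 3 oswrky53 libraries lay below both other groups. The share fell by 0.424 ± 0.0214 against GSK2-RNAi (SE, limma adjusted p = 0.00374), a call lost without GSK2-RNAi oswrky53 replicate 2 (adjusted p = 0.0573) that passed in 13 of 15 alternative settings (0.000993 to 0.164), and differed by -0.098 ± 0.024 from the wild type (limma adjusted p = 0.107). Transcript 03 made up 0.392 and 0.446 of the sum in the wild type, 0.156 to 0.174 in GSK2-RNAi and 0.444 to 0.578 in GSK2-RNAi oswrky53. The locus sum fell by 1.71 ± 0.20 in log2 units against GSK2-RNAi (limma adjusted p = 0.00275).

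At the 6 loci called against the wild type, the mean shares of the 2 groups carrying the GSK2-RNAi label differed by no more than 0.0406, and none of these differences passed the test. At Os05g0136200 (chromosome 5) transcript 02 was at 116 and 161 normalized counts in the wild type and was listed at 0 in all 6 other libraries, so that the share of transcript 01 was 0.559 and 0.607 against 1.00 in each. Os06g0190800 (chromosome 6) showed the same layout, with transcript 02 at 133 and 98.4 in the wild type and listed at 0 in the other 6 libraries. At Os01g0844800 (chromosome 1) transcript 03 was at 268 and 421 in the wild type, listed at 0 in GSK2-RNAi, and at 0, 10.9 and 0 in GSK2-RNAi oswrky53.

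The difference between GSK2-RNAi oswrky53 and the wild type in the share of transcript 01 was 0.417 ± 0.0135 at Os05g0136200, 0.26 ± 0.00447 at Os06g0190800 and 0.249 ± 0.00702 at Os01g0844800 (SE). The limma adjusted p was 6.9e-05, 5e-06 and 5.2e-05, and all 3 calls passed in 15 of 15 alternative settings. A share of 1.00 in every library has no spread of its own. The fit pools the spread over the 3 groups and shares it across transcripts, so libraries at or near 1.00 made these errors small. The SD of the 2 wild type libraries was 0.0343 at Os05g0136200, 0.00644 at Os06g0190800 and 0.0153 at Os01g0844800. The SE may therefore understate the wild type spread, and the adjusted p may be too small, also in the alternative settings.

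At Os02g0205300 (chromosome 2) the share of transcript 01 was 0.645 and 0.675 in the wild type, 0.961, 0.996 and 0.922 in GSK2-RNAi and 1.00 in each GSK2-RNAi oswrky53 library, and GSK2-RNAi oswrky53 exceeded the wild type by 0.34 ± 0.0214 (SE, limma adjusted p = 0.00253). That call passed in 14 of 15 alternative settings (adjusted p from 0.0013 to 0.0786). At Os02g0246600 (chromosome 2) transcript 02 had a share of 0.249 and 0.253, then 0.516, 0.505 and 0.495, then 0.479, 0.527 and 0.482. Its difference from the wild type was 0.245 ± 0.0264 (limma adjusted p = 0.0253). This call was lost without wild type replicate 1 (0.097) or 3 (0.0707), GSK2-RNAi replicate 1 (0.058) and GSK2-RNAi oswrky53 replicate 1 (0.0638), 2 (0.083) or 3 (0.0792). The sixth locus, Os07g0568600 (chromosome 7), had a share of 0.461 and 0.466 for transcript 01 in the wild type, 0.636 to 0.706 in GSK2-RNAi and 0.662 to 0.713 in GSK2-RNAi oswrky53 (limma adjusted p = 0.0462). Its call passed in 4 of 15 alternative settings (adjusted p from 0.0377 to 0.231), and of the libraries left out in turn only the loss of GSK2-RNAi replicate 2 kept it; without wild type replicate 1 the adjusted p was 0.133 and without replicate 3 it was 0.0901, without GSK2-RNAi replicates 1 and 3 in turn 0.0737 and 0.067, and without GSK2-RNAi oswrky53 replicates 1, 2 and 3 in turn 0.107, 0.115 and 0.109.

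**Figure D4:**
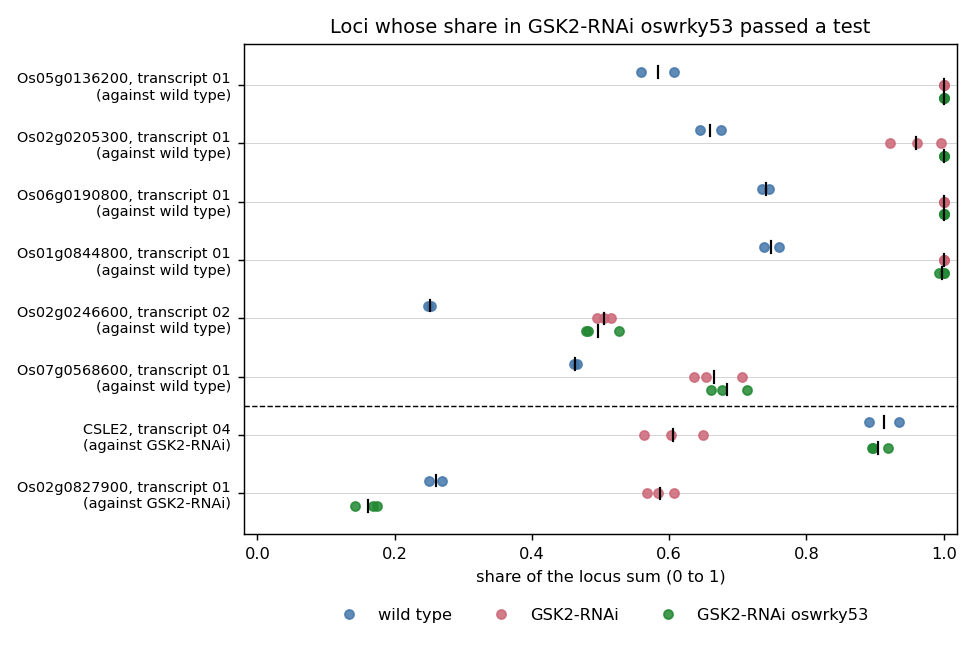
Share of the lead transcript in the locus sum (x axis, 0 to 1) at the 8 loci (y axis) whose share in GSK2-RNAi oswrky53 passed the test against the group given in brackets. Points are libraries and black ticks are group means. At the 6 upper loci the green points (GSK2-RNAi oswrky53) lie with or near the red ones (GSK2-RNAi), and at the 2 lower loci they lie apart from them.

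Listing at 0 was seen at other members too, which were chosen after their values were seen. In all, 7 transcripts were below 0.01 of the sum in all 3 GSK2-RNAi libraries and at a mean of at least 0.2 in the wild type, and 4 were the reverse. Of the 4, Os02t0316900-02 was listed at 0 in the wild type and had shares of 0.301, 0.225 and 0.229 in GSK2-RNAi and 0.312, 0.502 and 0.436 in GSK2-RNAi oswrky53. Os01t0283100-02 was at 0.327, 0.252 and 0.151 in GSK2-RNAi but at 0.0269, 0 and 0.0088 in GSK2-RNAi oswrky53. The first transcript was thus present in both groups with the GSK2-RNAi label, and the second mainly in 1 of them.

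Without a test, the 3 libraries of GSK2-RNAi oswrky53 were placed by range at each locus. All 3 lay within or beyond the GSK2-RNAi side at 20 loci, within or beyond the wild type side at 9 and between the groups at 14, and they were spread over these zones at 77. Loci outside the 120 were not placed in this way, so nothing is read from these counts. The lead shares of GSK2-RNAi oswrky53 did not overlap those of GSK2-RNAi at 39 of 120 loci (32.5%), where 19.3% of all transcripts did not. They did not overlap those of the wild type at 75 of 120 (62.5%), where 40.1% of all transcripts did not. For GSK2-RNAi against the wild type, where the rule asks for it, 29.1% of all transcripts did not overlap. The wild type has fewer libraries, so a lack of overlap is easier to reach against it. The percentages of these comparisons are therefore not set against each other. Since the loci were chosen for wide gaps between the other groups, nothing is read from the higher shares. The median SD of the lead share was 0.0547 in the wild type, 0.0643 in GSK2-RNAi and 0.0749 in GSK2-RNAi oswrky53.

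With the values as deposited, most of the 120 loci differed little in their sums between the groups that chose them. These counts depend on library scaling, since the totals of GSK2-RNAi were 20870000 to 21710000 against 27740000 and 28030000 in the wild type. They were not repeated with equal totals. GSK2-RNAi and the wild type were within 1.5-fold of each other at 78 loci, while the sum was over 2-fold higher in GSK2-RNAi at 14 and lower by more than this factor at 7. Against GSK2-RNAi the sum in GSK2-RNAi oswrky53 was called at 23 of 120 loci (19.2%), 6 upward and 17 downward, where 16.5% of 25325 loci were called, 8.78% upward and 7.7% downward. The median log2 difference was -0.09 over the 120 loci and -0.01 over all loci. All loci here are the 25325 tested, which were admitted at lower sums than the 120 loci and need not have several transcripts. Rates for only the loci that could meet the rule are not given. Nothing is therefore read from the 120 loci set beside all loci, here or in the rest of this paragraph. With libraries scaled to equal totals the median over all loci was -0.32, and 4 of the 120 loci were called upward and 49 downward (44.2% in all), where 29.0% of all loci were called, 1145 upward and 6193 downward. Without GSK2-RNAi replicate 2 the 23 called loci became 13 (10.8%), where 6.19% of all loci were called (1568 of 25325). Against the wild type 1 member was called, MST3, where 0.336% of all loci were (85 of 25325).

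Os08g0503700 (chromosome 8) had the largest sum of all members and was among the 23, at 7993 and 9797 normalized counts in the wild type, 19670 to 29750 in GSK2-RNAi and 11840 to 13820 in GSK2-RNAi oswrky53. That call (limma adjusted p = 0.0177) was lost without GSK2-RNAi replicate 2 (0.0646) or 3 (0.0551) and without GSK2-RNAi oswrky53 replicate 3 (0.0543). Its transcript 02 had a share of 0.449 and 0.533, then 0.655, 0.806 and 0.778, then 0.843, 0.818 and 0.706. The next largest sums were those of NADP-ME2, Os07g0691200, Os01g0332800 and Os04g0390500. At Os01g0332800 (chromosome 1) transcript 01 had a share of 0.283 and 0.286 in the wild type, of 0.529, 0.573 and 0.369 in GSK2-RNAi and of 0.545, 0.604 and 0.465 in GSK2-RNAi oswrky53. At Os07g0691200 (chromosome 7) transcript 01 was at 0.0624 and 0.0532, then 0.218, 0.414 and 0.191, then 0.217, 0.104 and 0.103. At Os04g0390500 (chromosome 4) transcript 03 was at 0.432 and 0.492, then 0.220, 0.202 and 0.330, then 0.350, 0.0181 and 0.204.

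The limit of 0.2 cut through a continuous range. Just inside it lay Os02g0128200 at 0.2005, Os02g0741100 at 0.2008 and Os08g0355400 at 0.202. Just outside it lay Os11g0429200 at a size of 0.199, Os03g0139200 at 0.199 and Os04g0503500 at 0.197, which also had groups that did not overlap. A further 33 loci reached 0.2 but overlapped. The number of loci was 185 without wild type replicate 1 and 239 without wild type replicate 3, and 93 and 98 of the 120 were among them. Without GSK2-RNAi replicate 2 it was 131, with 93 of the 120 among them. With a library left out, a lack of overlap is easier to reach, so the rule itself was looser in these settings.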

How the data were processed

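The authors deposited 1 table of normalized counts per transcript, a signal that is never negative, for 38335 transcripts and 8 libraries. Build IRGSP-1.0 and the tools DESeq2 1.26.0 and kallisto 0.46.1 stand in the submitters' processing notes, without role or order; the normalization formula, transcript lengths and what differs between transcripts of a locus are not stated there. Library scaling cancels in a share, but a share is one of normalized counts, not of molecules. Since the values are not counts, no count model was used, no counting interval can be given, and the read depth is unknown.

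Shares of the 9147 transcripts of 4009 loci were fitted in limma 3.58.1 (R 4.3.3; 3 group means, eBayes with trend) with Benjamini-Hochberg adjustment over all transcripts, threshold 0.05; the 2 transcripts of a pair give mirrored results. Locus sums were fitted as log2(sum + 1) for the 25325 loci at 10 or more in at least 2 libraries. GSK2-RNAi against the wild type chose the loci and was not tested. Both fits were tested on simulated data. Samples were grouped by title.

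Named are GSK2, WRKY53, the 10 loci with the largest difference, the 5 with the largest sums, up to 5 called in each test, the 3 loci on each side of the limit and the loci with a symbol. Symbols were matched by hand, from what is generally known of rice genes, after the loci were known, and had to stand in the reference table (assembly ASM3414082v1) on the same chromosome, in order and within 1 Mb; 11 of 11 written did, WRKY53 being unchecked. Neighbouring family members cannot be told apart this way. The loci, lists and tests were chosen with earlier results of these data known. Alternatives covered the rule's limits, the scale of the share, eBayes without trend, the scaling of sums, the pseudocount, filters, a replicate block and leaving out each library.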

Additional observations from a re-analysis of the deposited data

How the results depend on the processing

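The number of loci was 483 with a difference of at least 0.1 and 32 with at least 0.3. It was 131 to 239 when 1 library of the wild type or GSK2-RNAi was left out. Leaving 1 out makes a lack of overlap easier to reach. Few share tests were called, so their counts moved easily. Against GSK2-RNAi, 9 transcripts and 2 lead transcripts of the 120 loci were called; the log2 ratio of a transcript to the rest of its locus gave 47 and 4, eBayes without trend gave 5 transcripts, only the 2 groups compared gave 2 and 1, and leaving out a library gave 1 to 32 and 0 to 4. Against the wild type, 45 transcripts became 74 with the log2 ratio, 72 with the arcsine of the square root and 68 without trend, and leaving out a library gave 21 to 99, with 4 to 6 lead transcripts of the 120 loci. Called locus sums against GSK2-RNAi went from 4172 to 7338 with equal totals, and from 23 to 53 among the 120 loci; leaving out a library gave 1568 to 4341 and 13 to 27. Against the wild type leaving out a library gave 53 to 64 called sums, and 0 to 1 among the 120 loci.

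Libraries with the same replicate number did not deviate together (correlations of share deviations from -0.164 to 0.116), so the numbers were not taken as pairs. With the replicate block, 0 transcripts and 0 lead transcripts were called against GSK2-RNAi in limma and 9 and 3 against the wild type, so that the calls at CSLE2 (adjusted p = 0.135) and Os02g0827900 (0.164), and at Os02g0205300 (0.0786), Os02g0246600 (0.216) and Os07g0568600 (0.231), were not made; called sums were 2621 against GSK2-RNAi, and 32 and 0 among the 120 loci against the wild type.

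Share differences that were not called changed sign at some loci. Against GSK2-RNAi, FRK2 became 0.83 with the log2 ratio and 0.00859 with the arcsine. Left-out libraries gave ranges that crossed 0: -0.0717 to 0.0319 at FRK2, -0.0739 to 0.0494 at CIPK16, -0.197 to 0.0365 at Os01g0874700, -0.183 to 0.0243 at Os03g0577500, -0.00307 to 0.0841 at Os08g0503700, -0.0126 to 0.0892 at Os01g0332800 and -0.14 to 0.0265 at Os04g0390500. Against the wild type the range at CSLE2 was -0.0316 to 0.0125, and with the replicate block CSLE2 was at 0.00293 and CAD3 at -0.014. The causes were not tested. With 2 or 3 libraries a group, small share differences were not detectable.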
